A study of Homo sapiens with 18 samples.

Results

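The 54 genes described here act in mitosis, at the kinetochore or in the anaphase-promoting complex (APC/C). They were taken as a list of symbols by function, with earlier results of these data known. Shares of these genes set beside those of the whole series are therefore descriptive. Introns of the 54 genes were found by position, as every intron with a splice site on an annotated GENCODE exon boundary of one of these genes. Of the 233650 introns in the data, 1020 belonged to 53 of the genes, and SPC25, a subunit of the NDC80 complex, had none. A mean value between 1 and 99% over all libraries was required for a test, which kept 604 introns in 194 clusters, from 152722 introns in the whole series. Below that range lay 369 of the 1020 introns and above it 47. Of the 604, 489 were annotated introns and 115 were not, and 583 had 18 different values over the libraries.

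SHEP.tet21n is a neuroblastoma cell line that carries a human MYCN cDNA, the gene of a MYC family transcription factor, which doxycycline (Dox) switches off. Cells received Dox at 2 µg/mL (MYCN-) or DMSO as vehicle (MYCN+) and a control siRNA (SNRPD3+) or one of 2 siRNAs against SNRPD3 (SNRPD3-), a core Sm protein of the spliceosome. The 6 groups were MYCN-/SNRPD3+ (called wildtype in the study), MYCN-/SNRPD3- with siRNA #1 or #2, MYCN+/SNRPD3+, and MYCN+/SNRPD3- with siRNA #1 or #2, each with 3 libraries of poly(A) RNA. All libraries come from 1 engineered line, and the MYCN comparisons are also comparisons of DMSO with Dox, so that the drug and the transgene cannot be told apart. The study describes its replicates as independent biological ones, while the labels number them without saying how they were grown. Whether MYCN was repressed and SNRPD3 depleted was not checked here, since the values used hold no information on transcript amounts. The study shows an immunoblot of both proteins in this line after vehicle or Dox and SNRPD3 siRNA.

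The measurement was PSI, the percentage of the spliced reads of an intron cluster (introns that share splice sites) that removed a given intron. A PSI is relative to its own cluster and holds no information on how much of a transcript was made or on introns left unspliced. Read numbers did not accompany the PSI values, which leaves the depth unknown and every value without a counting interval. PSI differences are given in percentage points, and tests were made by limma on log2 odds, log2((PSI + 0.01)/(1 − PSI + 0.01)) with PSI as a fraction, with p-values adjusted by the Benjamini-Hochberg method over all tested introns. A feature is called where its adjusted p is under 0.05. The exon skipping share is the PSI of the intron that leaves an exon out, divided by the sum of that PSI and the mean PSI of both introns that join the exon. It was computed for 88 sets of 3 annotated introns around 73 different exons of 32 of the genes, out of 18508 sets in the series. An exon has more than 1 set where different introns join it.

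Chromosome segregation depends on a chain of protein assemblies. The inner kinetochore proteins of the CENP family mark the centromere and carry the outer kinetochore, whose NDC80 complex (NDC80, NUF2, SPC24, SPC25) holds the spindle microtubules. The spindle assembly checkpoint (BUB1, BUB1B, BUB3, TTK, MAD1L1, MAD2L1) keeps CDC20 from activating the APC/C, a multi-subunit ubiquitin ligase, until all kinetochores are attached, after which securin (PTTG1) is destroyed and separase (ESPL1) cuts cohesin. Kinesins and the bundling protein PRC1 then build the spindle midzone on which the cell divides.

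Exon 8 of KIF23 and exons of CDC14B, CDC25B, CENPE and NUF2 were the coding exons called for MYCN status, and their sequences are shown because the main MYCN result rests on them. Each was read from hg38 on the strand of its gene, 5′ to 3′, with the exon in capitals and 20 bases of each flanking intron in lower case.
KIF23 exon 8, chr15:69425262-69425343, plus strand: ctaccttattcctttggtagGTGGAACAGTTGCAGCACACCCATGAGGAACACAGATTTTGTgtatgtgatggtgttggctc
CDC14B exon 13, chr9:96509653-96509809, minus strand: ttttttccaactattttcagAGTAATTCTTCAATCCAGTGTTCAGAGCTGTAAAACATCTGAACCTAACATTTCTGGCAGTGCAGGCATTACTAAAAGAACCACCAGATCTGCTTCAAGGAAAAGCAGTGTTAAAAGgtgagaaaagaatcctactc
CDC25B exon 6, chr20:3800723-3800885, plus strand: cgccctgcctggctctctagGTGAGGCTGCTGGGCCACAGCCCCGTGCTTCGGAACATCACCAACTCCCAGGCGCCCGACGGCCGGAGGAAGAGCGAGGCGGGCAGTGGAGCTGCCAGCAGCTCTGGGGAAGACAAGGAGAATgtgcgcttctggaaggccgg
CENPE exon 17, chr4:103163459-103163573, minus strand: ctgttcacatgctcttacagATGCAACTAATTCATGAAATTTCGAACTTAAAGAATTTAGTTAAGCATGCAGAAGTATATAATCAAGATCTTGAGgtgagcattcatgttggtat
NUF2 exon 11, chr1:163345658-163345838, plus strand: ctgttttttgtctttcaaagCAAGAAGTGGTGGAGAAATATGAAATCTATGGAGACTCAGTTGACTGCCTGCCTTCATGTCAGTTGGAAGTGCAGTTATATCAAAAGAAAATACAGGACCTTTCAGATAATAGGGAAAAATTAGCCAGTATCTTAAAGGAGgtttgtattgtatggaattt
The 5 exons are 42, 117, 123, 75 and 141 bases long, all multiples of 3 and coding throughout, so that leaving one out keeps the reading frame. GC content ranged from 28% in CENPE exon 17 to 66.7% in CDC25B exon 6. Pyrimidines made up 65 to 75% of the 20 bases before each exon, and the median over all 16565 tested exons of the series was 70%, the same as over the 73 exons of the mitosis genes. Of the 73 exons, 34 (46.6%) had a length that is a multiple of 3, against 43.1% of all tested exons, and their median length was 114 bases against 113.

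The libraries differed in skipping as a whole. The mean skipping share over the 88 sets was lowest in wildtype, at 30.7% ± 0.145 (SD over 3 libraries, as for the values that follow). It was 31.5% ± 0.117 in MYCN+/SNRPD3+ cells. SNRPD3 siRNA #1 and #2 gave 32.3% ± 0.785 and 32.4% ± 0.77 without MYCN, and 34.3% ± 1.98 and 33.6% ± 0.91 with MYCN. All knockdown libraries lay above the controls of the same MYCN status, and the same was true of the means over all 18508 sets. Medians over the 88 sets overlapped between knockdown and control libraries. Over all 18508 sets the group means ran from 38.3% in wildtype to 41.1% in MYCN+/SNRPD3- cells with siRNA #1, in which replicate 3 stood apart with 42.8% against 40.2 and 40.4%. In the same library the mitosis genes had their highest mean, 36.6%, against 33 and 33.4%. Calls that were lost without this library are given with and without it.

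**Figure D1:**
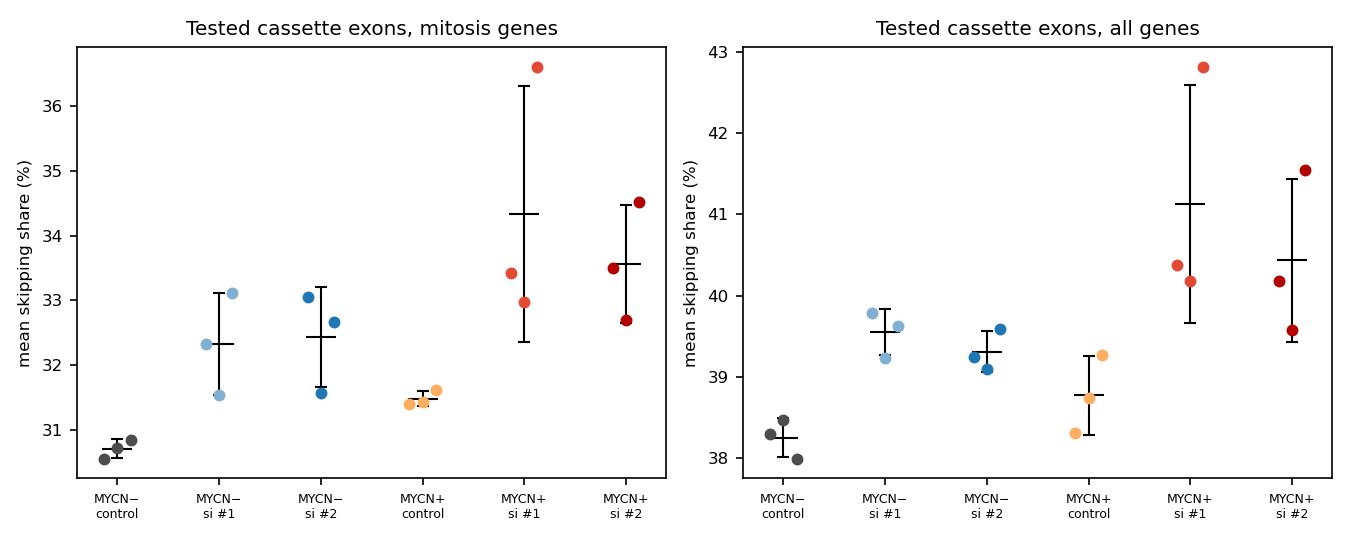
Mean exon skipping share per library (%), over the 88 sets of the mitosis genes (left) and over all 18508 sets (right). Points are libraries and bars the mean ± SD of 3; in both panels replicate 3 of MYCN+/SNRPD3- with siRNA #1 is the highest point (36.6% and 42.8%).

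The first question was what MYCN does to the splicing of these genes, taken as the MYCN average, the mean over the control siRNA and both SNRPD3 siRNAs of MYCN+ minus MYCN-. In this comparison 5 of the 88 sets (5.68%) were called, in KIF23, CDC14B, CDC25B, NUF2 and CENPE, beside 4.85% of all sets. Skipping was higher with MYCN for the first 4 and lower for CENPE. At an unadjusted p under 0.05 there were 22 sets (25%), 20 of them higher, beside 21.3% of all sets. Of the 604 introns 6 were called (0.993%), 3 higher and 3 lower, beside 1.23% of all introns, and 93 (15.4%) had an unadjusted p under 0.05, beside 11.7%. The share of calls among the mitosis genes was thus near that of the series in both measures. The median absolute PSI difference of their introns was 0.669 percentage points, against 1.21 over all tested introns, and their median SD within a group was 1.56 points against 3.11. With the control siRNA alone, no intron of the 604 was called for MYCN (0.0543% of all introns were), and 27 had an unadjusted p under 0.05 (4.47%, beside 6.19%).

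The second question was what knockdown of SNRPD3 does, taken as the knockdown average over both MYCN states and both siRNAs. No set of the mitosis genes was called by limma, nor any of the 18508 (0.0%), and no intron of the 604 was called, beside 0.0242% of all introns. At an unadjusted p under 0.05 there were 35 of the 88 sets (39.8%), 34 with more skipping, beside 15.3% of all sets. Several of these sets share an exon, as in AURKA and PRC1, so they are not separate events. The median SD of a set within a group was also smaller, 2.27 points against 3.49 over all sets. Skipping was numerically higher in 71 of 88 sets (80.7%), against 71.1% of all sets, with a median difference of 1.28 points against 0.868. Of the introns 82 (13.6%) had an unadjusted p under 0.05, beside 7.8%. With MYCN repressed no intron was called (0.0138% of all) and 28 passed unadjusted (4.64%, beside 4.69%). With MYCN expressed no intron was called (0.0196% of all) and 67 passed unadjusted (11.1%, beside 7.06%).

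The third question was whether the knockdown acted differently in cells with and without MYCN. In this interaction no set (0.0% of all) and no intron (0.0177% of all) of the mitosis genes was called, and 1 set and 13 introns had an unadjusted p under 0.05 (1.14 and 2.15%), beside 4.14% of all sets and 3.98% of all introns. A difference between the knockdown effects in both MYCN states was therefore not detected for any of these genes. A further comparison, MYCN+/SNRPD3- against wildtype, changes MYCN and SNRPD3 at once. Here 11 sets of 7 genes (12.5%) were called, all with more skipping, beside 5.68% of all sets, and 30 sets (34.1%) had an unadjusted p under 0.05, 27 of them higher, beside 22.3%. Some of these sets also share an exon or a skipping intron and are not separate events. Of the introns 8 in 4 genes were called (1.32%), 6 higher and 2 lower, beside 0.559% of all introns, and 99 (16.4%) had an unadjusted p under 0.05, beside 11%. With siRNA #1 alone 6 introns were called (0.993%, beside 0.278%) and with siRNA #2 alone 2 (0.331%, beside 0.11%). All comparisons against wildtype share the same 3 control libraries. With only the groups compared in the fit, no set and no intron of these genes was called in MYCN+/SNRPD3- cells of both siRNAs against wildtype. Leaving out wildtype replicate 1, 2 or 3 lowered the 11 sets to 3, 1 and 2 and the 8 introns to 3, 2 and 1. Without replicate 3 of MYCN+/SNRPD3- siRNA #1, the library that stood apart, 6 sets and 5 introns were called. Without siRNA #2 replicate 1 there were 7 sets and 5 introns, and without siRNA #2 replicate 3 there were 3 of each. The intron count was also 5 without MYCN+/SNRPD3+ replicate 2 or 3, MYCN+/SNRPD3- siRNA #1 replicate 1, or MYCN-/SNRPD3- siRNA #2 replicate 1 or 3. The 6 introns of siRNA #1 became 1, 1 and 0 without wildtype replicate 1, 2 or 3 and 2 without siRNA #1 replicate 3. The 2 introns of siRNA #2 became 0 without any of the wildtype libraries or without siRNA #2 replicate 2 or 3, 4 without siRNA #1 replicate 3, and 1 without MYCN+/SNRPD3+ replicate 1, 2 or 3, siRNA #1 replicate 2, siRNA #2 replicate 1, MYCN-/SNRPD3- siRNA #1 replicate 1, 2 or 3 or MYCN-/SNRPD3- siRNA #2 replicate 1 or 3. For the averages, 1 intron was called for knockdown without wildtype replicate 1, and 1 for knockdown with MYCN repressed without wildtype replicate 3. These refit counts are of the mitosis genes alone, without the share over all features. Whether they changed more or less than the whole series was not tested.

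**Figure D2:**
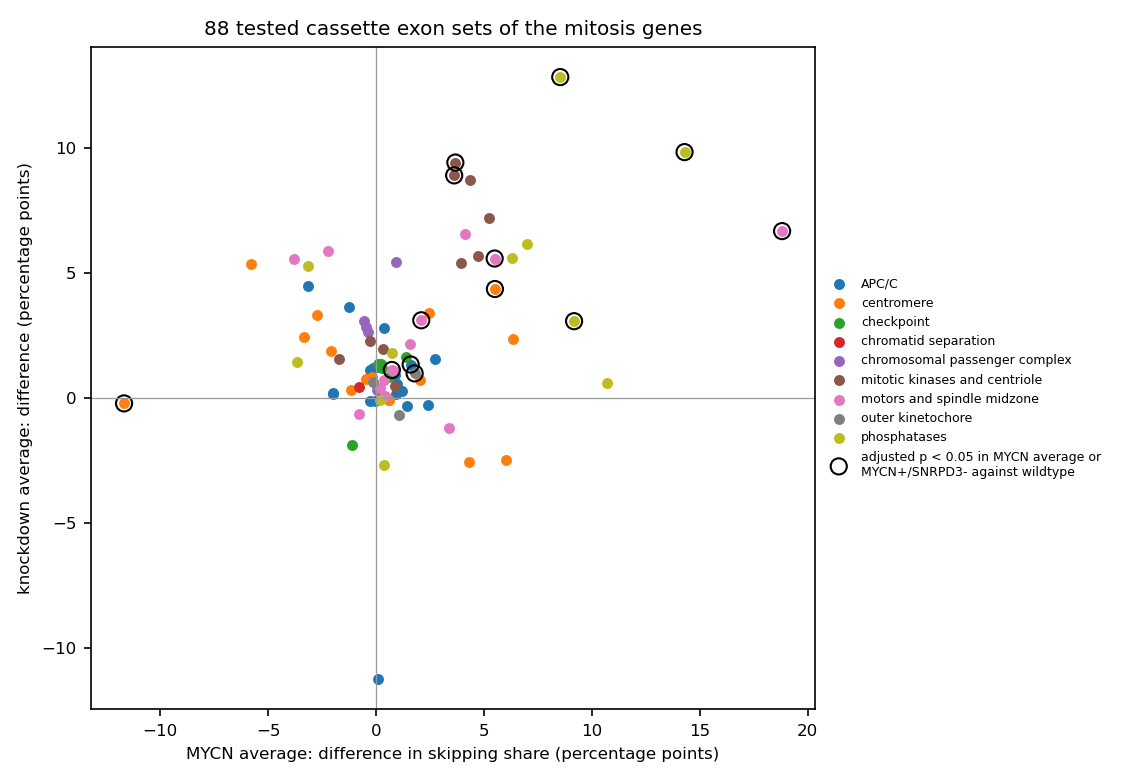
Difference in skipping share (percentage points) for the MYCN average (horizontal) and the knockdown average (vertical) in the 88 sets, coloured by role; rings mark sets called in the MYCN average or in MYCN+/SNRPD3- against wildtype. KIF23 exon 8 lies farthest to the right (18.8 points), CENPE exon 17 farthest to the left (-11.7 points), and the lowest point is a 68-base exon of ANAPC10 (-11.2 points) that was not called.

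KIF23, the kinesin-6 motor of the centralspindlin complex that bundles midzone microtubules for cytokinesis, gave the largest difference of any set in the MYCN average. Exon 8 of 24 (chr15:69425282-69425323) was skipped more often in every MYCN+ library than in any MYCN- library. The skipping share was 56.1, 55.8 and 47.3% in wildtype, 58.8, 61.2 and 62.1% in MYCN-/SNRPD3- cells with siRNA #1 and 53.1, 56.8 and 57.1% with siRNA #2. With MYCN it was 69.2, 69.8 and 70.5% with the control siRNA, 76.8, 74.3 and 85.7% with siRNA #1 and 73.5, 78.3 and 79.6% with siRNA #2. The lowest MYCN+ value, 69.2%, lay above the highest MYCN- value, 62.1%. The MYCN average was 18.8 points higher, or 1.23 ± 0.15 log2 odds (SE), with adjusted p = 0.000947 by limma. No other set of the 88 separated all 9 MYCN+ from all 9 MYCN- libraries in either direction, as 0.735% of all sets did. The knockdown average was 6.67 points (adjusted p = 0.196) and the interaction 3.11 points (adjusted p = 0.999), neither of them called. Against wildtype, MYCN+/SNRPD3- cells skipped the exon more by 25 points (adjusted p = 0.00398), and both calls held in 18 of 18 fits that left out 1 library. The call against wildtype was lost when only the 3 groups compared were fitted (adjusted p = 0.0729).

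The 3 introns of this KIF23 cluster show the same shift as PSI, and they are not independent of each other or of the skipping share. The intron from exon 7 to exon 9 (chr15:69423330-69426069) had a mean PSI of 36.2% in wildtype, 53.6% in MYCN+/SNRPD3+ cells and 65.5% and 62.9% in MYCN+/SNRPD3- cells with siRNA #1 and #2. The SD over the 3 wildtype libraries was 4.57 points. It rose by 21.2 points in the MYCN average (1.24 ± 0.14 log2 odds, adjusted p = 0.000734). The introns from exon 7 to 8 and from exon 8 to 9 fell by 8.42 and 12.8 points (adjusted p = 0.0015 and 0.00326). All 3 were also called in MYCN+/SNRPD3- against wildtype (adjusted p = 0.00491, 0.0104 and 0.015, in the order given) and with siRNA #1 alone. Without the library that stood apart, the siRNA #1 call of the intron from exon 7 to 8 was lost (adjusted p = 0.0659). With siRNA #2 alone, 2 of the 3 were called by limma, and the intron from exon 8 to 9 had adjusted p = 0.0801. The call of the intron from exon 7 to 9 (adjusted p = 0.0273) held in 13 of 18 fits that left out 1 library. That of the intron from exon 7 to 8 (adjusted p = 0.0487) held in 1 of 18.

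**Figure D3:**
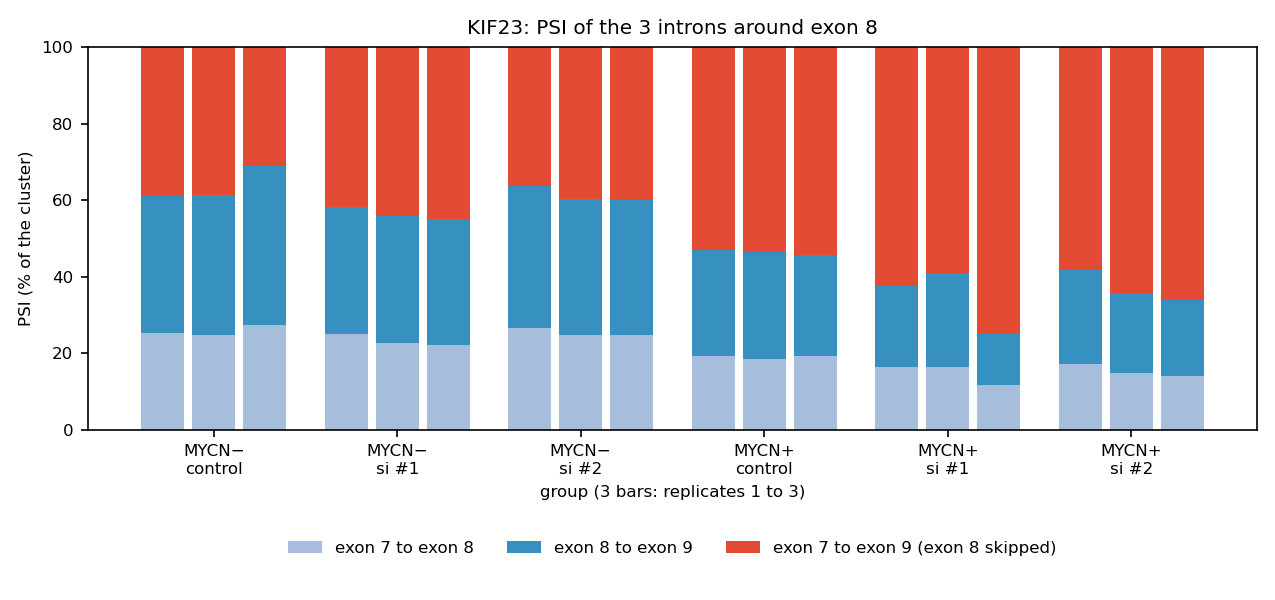
PSI (% of the cluster) of the 3 introns around KIF23 exon 8 in each of the 18 libraries, stacked, with 3 bars for replicates 1 to 3 in each group. The part that skips exon 8 runs from 31 to 45% in the MYCN- libraries and from 52.9 to 75% in the MYCN+ libraries.

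Other KIF23 exons differed less. The set of exon 18 (180 bases, chr15:69440308-69440487) has a skipping intron from exon 17 to exon 20, which leaves out exons 18 and 19 together. It is set against the introns from exon 17 to 18 and from exon 18 to 20, of which only the latter leaves out exon 19. The skipping share of this set was 0.927, 0.576 and 0.69% in wildtype and 2.1, 1.19, 3.9, 1.95, 1.55 and 4.19% in MYCN+/SNRPD3- cells (3 values with siRNA #1, then 3 with siRNA #2). The groups did not overlap, but both siRNAs' replicate 3 held the highest values. The difference was 1.75 points (adjusted p = 0.0469), called in 2 of 18 fits without 1 library and lost without the library that stood apart (adjusted p = 0.0756). An unannotated intron that joins exon 21 to exon 23 (chr15:69446092-69446870) had a PSI of 1.77, 1.91 and 1.9% in wildtype and 6.08, 4.37, 9.58, 4.39, 3.06 and 6.54% in MYCN+/SNRPD3- cells in the same order (adjusted p = 0.04, 5 of 18 fits, adjusted p = 0.056 without that library). With siRNA #1 alone this intron was called by limma (adjusted p = 0.04685), but not without that library (adjusted p = 0.1421). Exon 19 itself (312 bases), chosen after its values were seen, was skipped at 75.3% in wildtype and 78.4% in MYCN+/SNRPD3+ cells, with a MYCN average of 3.39 points that was not called (adjusted p = 0.192).

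PRC1, which crosslinks antiparallel microtubules in the midzone, had 2 called exons, both from low levels. Exon 12 of 15 (111 bases, chr15:90970404-90970514) was skipped at 7.2, 5.56 and 5.34% in wildtype and 6.92, 8.51 and 9.53% in MYCN+/SNRPD3+ cells. Knockdown libraries gave 10.6, 6.88, 9.86, 9.5, 7.29 and 11% without MYCN and 13.1, 12.2, 27.8, 14.1, 9.76 and 20.8% with MYCN, siRNA #1 before siRNA #2. Every MYCN+/SNRPD3- library lay above every wildtype library, and replicate 3 of each siRNA was the highest of its group. Against wildtype the share rose by 10.3 points (1.39 ± 0.33 log2 odds, adjusted p = 0.0286, 14 of 18 fits, adjusted p = 0.0405 without the library that stood apart). Its skipping intron shares a splice site with an overlapping gene model, and had adjusted p = 0.0814 on its own. Exon 5 (171 bases, chr15:90981499-90981669) rose from 2.32% ± 0.518 (SD, n = 3) to a mean of 6.16% and 7.98% in MYCN+/SNRPD3- cells with siRNA #1 and #2 (adjusted p = 0.0278, 14 of 18 fits), and all 12 knockdown libraries lay on the higher side of the mean of the controls (knockdown average 3.1 points, adjusted p = 0.0986). For exon 14 (42 bases, chr15:90969079-90969120), measured between splice sites that are not those of the canonical transcript, the share was 54.8% in wildtype and 69.1% and 61.2% in MYCN+/SNRPD3- cells with siRNA #1 and #2, and the knockdown average of 6.55 points was not called (adjusted p = 0.192). Both other sets of this exon gave 5.89 and 5.54 points in the knockdown average, and 3.36 and 1.27 points against wildtype, where the set above gave 10.4. The other members of this role, KIF11, KIF14 and TPX2, had no called intron or exon. Among all 5 midzone and motor genes 18 of 72 introns passed an unadjusted p under 0.05 against wildtype, 11 higher and 7 lower, beside 11% of all tested introns. The 4 called introns were all in KIF23, 3 of them in 1 cluster.

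**Figure D4:**
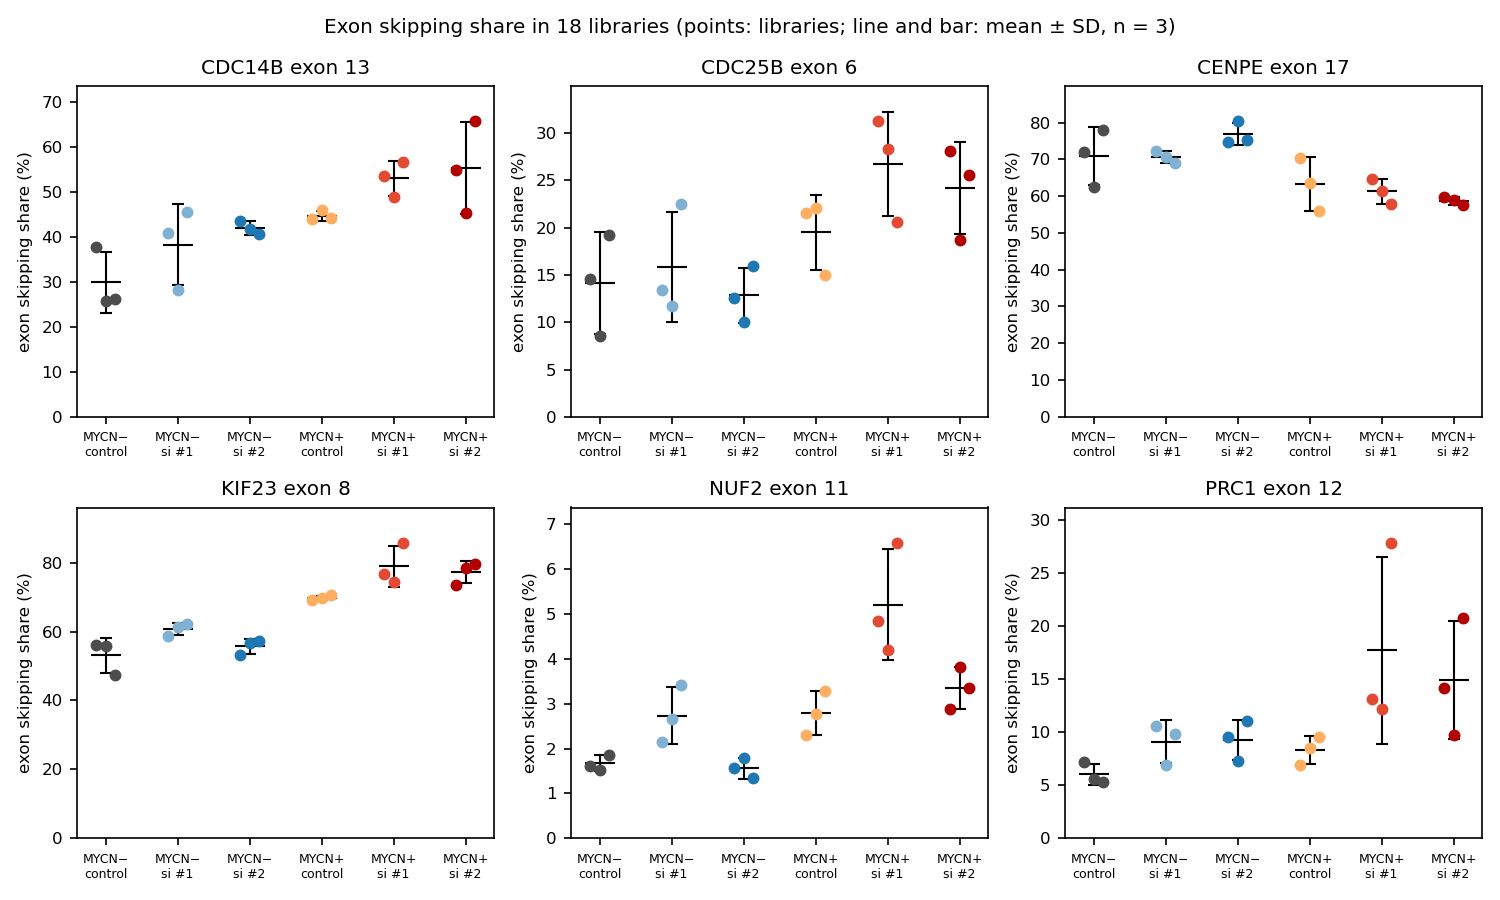
Exon skipping share (%) of 6 exons in the 18 libraries, points for libraries and bars for the mean ± SD of 3. KIF23 exon 8 separates all MYCN+ from all MYCN- libraries (69.2 to 85.7% against 47.3 to 62.1%), CENPE exon 17 is the one with lower MYCN+ means, and PRC1 exon 12 has its highest point, 27.8%, in replicate 3 of MYCN+/SNRPD3- with siRNA #1.

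At the centromere, CENPE, the kinesin-7 motor that brings chromosomes to the spindle equator, differed in the opposite direction to the other 4 sets called for MYCN. Exon 17 of 49 (chr4:103163479-103163553) had a skipping share above 50% in every library, with 72, 62.5 and 78.1% in wildtype, 72.4, 70.6 and 69% with siRNA #1 and 74.8, 80.3 and 75.3% with siRNA #2. With MYCN the shares were 70.5, 63.5 and 56% with the control siRNA, 64.7, 61.4 and 57.9% with siRNA #1 and 59.7, 58.8 and 57.6% with siRNA #2. All 9 MYCN+ libraries lay below the mean of the MYCN- libraries, though the ranges overlapped. Skipping fell by 11.7 points in the MYCN average (-0.76 ± 0.16 log2 odds, adjusted p = 0.0182), a call kept in 18 of 18 fits. The PSI of the skipping intron fell by 6.23 points (adjusted p = 0.0477), but this call held in 2 of 18 fits without 1 library and was lost without the library that stood apart (adjusted p = 0.0901). The knockdown average of exon 17 was -0.219 points (adjusted p = 0.986). The last intron of the gene, between exons 48 and 49 (chr4:103106317-103108802), had a PSI of 69.6% in wildtype and 59.5% in MYCN+/SNRPD3+ cells, and its MYCN average of -8.72 points was not called (adjusted p = 0.0854).

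CENPK, a subunit of the constitutive centromere network, was called for exon 8 of 11 (99 bases, chr5:65528919-65529017). The share was 2.34, 4.04 and 3.77% in wildtype, 5.19, 3.58 and 6.88% in MYCN+/SNRPD3+ and 10.4, 6.72, 23.5, 9.35, 6.73 and 17.3% in MYCN+/SNRPD3- cells, siRNA #1 first. Both highest values, 23.5 and 17.3%, were those of replicate 3. Knockdown without MYCN gave means of 4.84% and 5.11%. The rise against wildtype was 8.95 points (adjusted p = 0.0469), called in 3 of 18 fits and lost without the library that stood apart (adjusted p = 0.0758). Exon 3 of CENPX (54 bases, chr17:82019641-82019694), a histone-fold subunit, was skipped at 67.1% in wildtype and 74.5% in MYCN+/SNRPD3+ cells, with a MYCN average of 6.02 points (adjusted p = 0.0844). In CENPN, which binds the CENP-A nucleosome, the intron chr16:81020277-81022754 differed by 5.88 points in the MYCN average (adjusted p = 0.132), and in CENPO the intron chr2:24793966-24799674 differed by -3.85 points in the knockdown average (adjusted p = 0.344). None of these 3 was called. Among the 133 tested introns of the 10 centromere genes, 26 had an unadjusted p under 0.05 in the MYCN average (15 higher, 11 lower, 1 called), 19 in the knockdown average and 22 against wildtype, with none called in the latter 2, beside 11.7, 7.8 and 11% of all tested introns.

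In the outer kinetochore, NUF2 was called in the MYCN average and against wildtype for exon 11 of 14 (chr1:163345678-163345818). The skipping share was low, 1.62, 1.53 and 1.87% in wildtype and 2.31, 2.78 and 3.28% in MYCN+/SNRPD3+ cells. Knockdown without MYCN gave 2.14, 2.65 and 3.41% with siRNA #1 and 1.56, 1.79 and 1.33% with siRNA #2. Knockdown with MYCN gave 4.83, 4.2 and 6.58% and 2.89, 3.81 and 3.34%. All MYCN+ libraries lay above all wildtype libraries, while siRNA #1 alone reached similar levels and siRNA #2 alone stayed near wildtype. The MYCN average was 1.79 points (0.69 ± 0.12 log2 odds, adjusted p = 0.00719, 18 of 18 fits) and the rise against wildtype 2.61 points (adjusted p = 0.0127, 17 of 18 fits). The skipping intron itself (chr1:163343871-163347762) was called in both comparisons and with siRNA #1 alone (adjusted p = 0.0101, 0.0262 and 0.0239), with a PSI of 0.839% in wildtype and 2.66% in MYCN+/SNRPD3- cells with siRNA #1. The siRNA #1 call was lost without the library that stood apart (adjusted p = 0.0743). The first intron of NUF2 (chr1:163322213-163326031) had a larger MYCN average of -8.05 points from a wildtype PSI of 68.6% ± 5.85 (SD, n = 3), which was not called (adjusted p = 0.249).

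NDC80, the partner of NUF2 at the microtubule, was called for an unannotated intron into exon 17 (chr18:2615315-2616436). Its PSI was 1.49, 1.52 and 2.06% in wildtype, 3.11, 2.44 and 3.34% in MYCN+/SNRPD3+ cells, 1.32, 0.493, 0.942, 1.63, 0.588 and 1.2% in MYCN-/SNRPD3- and 2.52, 2.45, 2.22, 1.63, 2.06 and 2.5% in MYCN+/SNRPD3- cells. The MYCN average was 1.22 points (0.67 ± 0.12 log2 odds, adjusted p = 0.0181, 18 of 18 fits), while the knockdown average was -0.701 points and not called (adjusted p = 0.455). The signs of the MYCN and knockdown values were opposite here, and the difference of MYCN+/SNRPD3- cells from wildtype was 0.536 points (adjusted p = 0.681). KNL1, SPC24 and ZWINT had no called feature. Of the 53 tested introns of this role 2 had an unadjusted p under 0.05 against wildtype, 5 in the knockdown average and 7 in the MYCN average. Over all tested introns the shares were 11, 7.8 and 11.7%.

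The checkpoint genes and the chromosomal passenger complex had no called intron or exon in any comparison. MAD1L1, the kinetochore anchor of MAD2, was among the best covered genes with 26 tested introns, of which 1 against wildtype, 1 in the knockdown average and 2 in the MYCN average had an unadjusted p under 0.05 (differences from -5.48 to 5.28 points against wildtype). Over all tested introns the shares were 11, 7.8 and 11.7%. BUB3, the WD40 partner of BUB1 and BUB1B, had a PSI of 51.2, 46.7 and 55.2% in wildtype and 39.5, 42.8, 37.7, 43.9, 46.5 and 42.3% in MYCN+/SNRPD3- cells for its intron from exon 7 to exon 8 (chr10:123162829-123163819). All 6 values of the latter lay below all 3 of the former. The other group means were 50.2% in MYCN+/SNRPD3+ and 46.3% and 48.6% in MYCN-/SNRPD3- cells, and the knockdown average was -5.83 points (adjusted p = 0.326, not called). INCENP, the scaffold that holds Aurora B, had an intron that leaves out exon 11 (chr11:62141045-62144981) with a mean PSI of 50.2% in wildtype and 59.9% and 61.4% in MYCN-/SNRPD3- cells with siRNA #1 and #2. With MYCN the means were 56.3%, 56.3% and 62.2%, and the knockdown average of 6.69 points was not called (adjusted p = 0.636). Of the 66 checkpoint introns 6 had an unadjusted p under 0.05 in the knockdown average and 5 in the MYCN average, and of the 26 passenger complex introns 3 and 1, beside 7.8 and 11.7% of all tested introns.

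**Figure D5:**
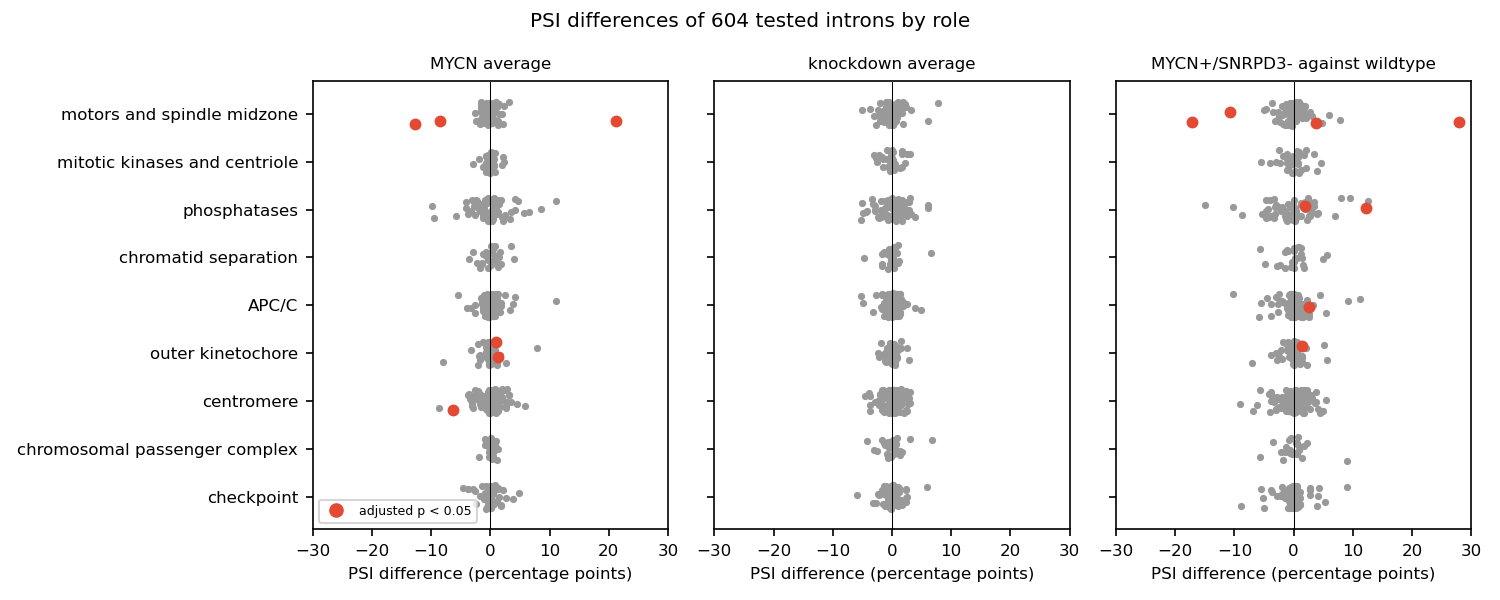
PSI difference (percentage points) of each of the 604 tested introns, by role of the gene, in 3 comparisons; larger coloured points have an adjusted p under 0.05. The 3 introns around KIF23 exon 8 lie apart in the MYCN average (-12.8, -8.42 and 21.2 points), and the knockdown average holds no called intron.

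Of the 13 APC/C genes, ANAPC16 and CDC16 had a call. ANAPC16, one of its small subunits, was called for an unannotated intron that joins exon 1 to exon 3 (chr10:72216139-72230365). Its PSI was 2.3, 2.85 and 2.47% in wildtype, 3.49, 3.42 and 4.08% in MYCN+/SNRPD3+ cells and 3.89, 4.19, 3.57, 4.05, 4.17 and 3.38% in MYCN-/SNRPD3- cells. In MYCN+/SNRPD3- cells it was 3.82, 5.16, 6.33, 5.06, 4.93 and 5.34%. All 15 other libraries lay above the 3 wildtype libraries, and the rise of MYCN+/SNRPD3- cells was 2.57 points (0.82 ± 0.13 log2 odds, adjusted p = 0.0225, 14 of 18 fits). CDC16, a tetratricopeptide scaffold subunit, had a skipping share for exon 13 of 18 (153 bases, chr13:114257078-114257230) of 5.22, 3.94 and 4.03% in wildtype, 8.8, 8.5 and 8.69% with MYCN and siRNA #1 and 7.35, 5.18 and 6.08% with MYCN and siRNA #2. The siRNA #1 values lay above wildtype and those of siRNA #2 overlapped it. The mean was 6.38% in MYCN+/SNRPD3+ cells and 7% and 5.03% after knockdown without MYCN. Against wildtype the share rose by 3.04 points (adjusted p = 0.0317, 12 of 18 fits, adjusted p = 0.0547 without the library that stood apart), and the skipping intron (chr13:114250675-114259334) was called with siRNA #1 alone (2.28 points, adjusted p = 0.039) but not with siRNA #2 (0.955 points, adjusted p = 0.405) nor, for siRNA #1, without that library (adjusted p = 0.121). A test of the difference between the siRNAs was not made.

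Other APC/C values passed an unadjusted p only. Skipping of exon 4 of ANAPC10 (121 bases, chr4:145064572-145064692), the substrate-binding DOC1 subunit, was 15.6% in wildtype and 19.9% and 20.5% after knockdown without MYCN, against 12.6% in MYCN+/SNRPD3+ and 17.5% and 16.5% after knockdown with MYCN (knockdown average 4.48 points, adjusted p = 0.238). The first introns of ANAPC7 (chr12:110396453-110403526) and ANAPC13 (chr3:134482932-134485951) differed by -5.21 and -4.86 points in the knockdown average (adjusted p = 0.446 and 0.503), and the former shares a splice site with an overlapping gene model. ANAPC1, the largest subunit, had 26 tested introns, of which 3, 2 and 1 had an unadjusted p under 0.05 against wildtype, in the knockdown average and in the MYCN average. Over all tested introns the shares were 11, 7.8 and 11.7%. ANAPC1 and CDC27 have near-identical copies elsewhere in the genome, so that reads could have been split between them and their values are uncertain. In all, 22 of the 123 APC/C introns had an unadjusted p under 0.05 against wildtype (13 higher, 9 lower), beside 11% of all, with 1 called.

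Among the mitotic kinases, AURKA, which drives centrosome maturation and spindle assembly, was called for a pair of alternative exons of 98 and 110 bases (chr20:56388687-56388784 and chr20:56390556-56390665). Both lie upstream of exon 2, the exon that holds the start of the coding sequence, and outside the canonical transcript. They were measured in 8 sets that differ in the introns joined, of which 2, with the same skipping intron (chr20:56388203-56392153), were called. In the called set, skipping of the 98-base exon was 27.3, 35.4 and 31.4% in wildtype and 35.9, 34.3 and 37.2% in MYCN+/SNRPD3+ cells. Knockdown gave 42.5, 43.7, 42.3, 42.6, 38.3 and 38.6% without MYCN and 43.8, 41.9, 54, 38.7, 42.3 and 47% with MYCN. All 12 knockdown libraries lay above all 6 controls. No other set of the 88 separated knockdown from control libraries in either direction, as 0.243% of all sets did. The knockdown average was 9.41 points (0.57 ± 0.14 log2 odds) but was not called (adjusted p = 0.0978), whereas MYCN+/SNRPD3- against wildtype was (13.3 points, adjusted p = 0.0294, 14 of 18 fits). For the 110-base exon the latter difference was 13 points (adjusted p = 0.0412, 5 of 18 fits, adjusted p = 0.0733 without the library that stood apart). The other sets were not called against wildtype. They gave 1.47 and 11.6 points for the 98-base exon (adjusted p = 0.772 and 0.0681), and from -0.269 to 11.8 points over 4 sets for the 110-base exon (adjusted p = 0.0678 to 0.939). PLK4, the kinase that starts centriole duplication, had an exon 9 of 16 (103 bases, chr4:127891579-127891681) skipped at 7.69, 5.22 and 8.79% in MYCN+/SNRPD3+ and 15.1, 13, 21.2, 12.7, 10.9 and 25.5% in MYCN+/SNRPD3- cells. Without MYCN its mean was 8.34% in wildtype and 9.83% and 10.1% after knockdown, and the knockdown average of 5.39 points was not called (adjusted p = 0.172). PLK1 and NEK2 had no called feature.

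The phosphatases that act at mitotic entry and exit held the other coding calls. In CDC14B, exon 13 of 14 (chr9:96509673-96509789) was measured in 2 sets, and only the one whose skipping intron joins exon 12 to exon 14 was called. In that set it was skipped at 37.8, 25.7 and 26.1% in wildtype, 40.8, 28.2 and 45.6% with siRNA #1 and 43.5, 41.7 and 40.5% with siRNA #2. With MYCN the shares were 44, 45.9 and 44.1%, then 53.4, 48.9 and 56.7% with siRNA #1 and 54.9, 45.2 and 65.6% with siRNA #2. All MYCN+ libraries lay above all 3 wildtype libraries, and 1 library of MYCN-/SNRPD3- with siRNA #1 reached 45.6%. The MYCN average was 14.3 points (0.85 ± 0.19 log2 odds, adjusted p = 0.0242, 18 of 18 fits), and the rise against wildtype 24.2 points (adjusted p = 0.0163, 16 of 18 fits). In the other set, in which the skipping intron starts from an alternative exon of 144 bases (chr9:96515649-96515792), exon 13 differed by 10.7 points in the MYCN average (adjusted p = 0.0597) and 11.8 points against wildtype (adjusted p = 0.142). The 144-base exon had 2 sets as well. In the set with the shared skipping intron its skipping rose by 21 points against wildtype (adjusted p = 0.032, adjusted p = 0.0628 without the library that stood apart), and in the set that keeps exon 13 the difference was 1.44 points (adjusted p = 0.825). The shared skipping intron (chr9:96503790-96522505, PSI 8.95% in wildtype, 21.2% and 21% in MYCN+/SNRPD3- cells) and an unannotated intron that leaves out exon 5 (chr9:96541893-96562692, 0.818%, 2% and 3.46%) were called against wildtype (adjusted p = 0.0442 and 0.046), each in 3 of 18 fits, and neither without the library that stood apart (adjusted p = 0.083 and 0.087).

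In CDC25B, which activates CDK1 at mitotic entry, exon 6 of 16 (chr20:3800743-3800865) was skipped at 14.6, 8.51 and 19.3% in wildtype and 13.4, 11.7, 22.5, 12.5, 10.1 and 15.9% after knockdown without MYCN. With MYCN the shares were 21.6, 22 and 15% with the control siRNA and 31.2, 28.3, 20.6, 28.2, 18.7 and 25.6% after knockdown. The MYCN+ and MYCN- ranges overlapped, but all 9 MYCN+ libraries lay above the MYCN- mean. The MYCN average was 9.18 points (0.86 ± 0.22 log2 odds, adjusted p = 0.0417), called in 6 of 18 fits, and the skipping intron alone was not called (adjusted p = 0.0819). CDC25C exon 3 (95 bases, chr5:138329553-138329647) differed by 6.32 points in the MYCN average (adjusted p = 0.0976) and by 5.59 in the knockdown average (adjusted p = 0.258). Exon 5 of the same gene (34 bases, chr5:138326021-138326054), in a set that leaves out exon 6 as well, differed by 7 points in the MYCN average (adjusted p = 0.204). CDC14A had introns with larger differences and larger spread, such as 11.1 points in the MYCN average for the intron from exon 5 to 6 (chr1:100424302-100439931, adjusted p = 0.24) and -15 points against wildtype for that from exon 4 to 5 (chr1:100390825-100424221, adjusted p = 0.452). None of the CDC25C and CDC14A values was called. The phosphatase introns had the largest median absolute difference of any role in the MYCN average, 1.42 points, against 1.21 over all tested introns. Of the 20 tested CDC14A introns in this role, 8 had 18 different values over the libraries. An unadjusted p under 0.05 was found for 15 of the 70 phosphatase introns, beside 11.7% of all.

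For chromatid separation, ESPL1 had an intron into exon 2 (chr12:53268407-53268754) with a PSI of 21.8, 29.6 and 29% in MYCN+/SNRPD3+ and 29.2, 34.1, 40.2, 36.2, 29.9 and 40% in MYCN+/SNRPD3- cells. These ranges overlapped by 1 library. Without MYCN the means were 30% in wildtype and 35.4% and 34.7% after knockdown, and the knockdown average of 6.56 points was not called (adjusted p = 0.571). PTTG1 had 2 tested introns and no call, and 3 of the 26 introns of this role passed unadjusted in the MYCN average, beside 11.7% of all tested introns.

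The other genes of the pathway, 91 genes listed by function with the inner and outer kinetochore, cohesin, condensin, augmin and cytokinesis among them, were counted in the same way. Of their 1093 tested introns 4 were called against wildtype (2 higher, 2 lower, in CLASP2, KIF22 and NDEL1), none in the knockdown average and 18 in the MYCN average (11 higher, 7 lower). Over all tested introns 0.559, 0.0242 and 1.23% were called, in the same order. At an unadjusted p under 0.05 there were 137, 98 and 129 of the 1093, or 12.5, 8.97 and 11.8%, beside 11, 7.8 and 11.7% of all. Of the 150 sets of cassette introns of these genes 11 were called against wildtype (8 with more skipping, 3 with less). None was called in the knockdown average and 4 were called in the MYCN average (3 with more skipping, 1 with less). Over all sets the shares were 5.68, 0.0 and 4.85%. The sets called against wildtype lay in ASPM, CLASP2, HAUS1, MASTL, NDEL1, RACGAP1, SPDL1, STAG2 and UBE2C. Those called in the MYCN average lay in CLASP2, ECT2, NSL1 and UBE2C.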

How the data were processed

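RNA from 18 libraries of SHEP.tet21n cells (6 groups of 3) was sequenced as stranded pairs after poly(A) selection. The authors aligned reads to hg38 with STAR (version 2.5.0a, with SAMtools 1.3.1, per the submitters' processing notes) and grouped introns with leafcutter. The deposited PSI values are fractions of each cluster, per library, printed here as percent. Reads per intron are not given. A deposited table of the authors' own comparisons (FDR and delta PSI per pair of groups) was not used. All 18 columns were matched to libraries by name.

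Introns were placed on GENCODE release 44 (the authors used an earlier release). Exons are numbered along the Ensembl canonical transcript. A cassette set needed 3 annotated introns of 1 cluster around an annotated exon. This last condition was added to the planned definition. PSI and skipping shares with a mean from 0.01 to 0.99 were fitted with limma 3.58.1 (R 4.3.3, lmFit and eBayes, 6 group means, 12 residual and 1.17 prior degrees of freedom for introns) on log2 odds with an offset of 0.01. Plots and summaries used Python 3.11.15, pandas 2.3.3, numpy 2.4.6 and matplotlib 3.10.9. The fit was tested on simulated data.

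The members and lists were chosen with earlier results of these data known. Named in the text are all member introns and sets with an adjusted p under 0.05, the 8 annotated introns (3 comparisons) and 8 sets (2 comparisons), 1 per gene, with the largest difference among those with 18 different values and an unadjusted p under 0.05, and the genes with the most and with no tested introns. KIF23 exon 19 and the ANAPC10 exon of 68 bases were named after their values were seen. Of the tested member introns 56 share a splice site with another gene. Alternatives were other offsets, filters and scales, the smaller flanking PSI, a replicate block, eBayes with trend and robust options, only the groups compared (for exons, chosen after seeing the data), and leaving out each library.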

Additional observations from a re-analysis of the deposited data

How the results depend on the processing

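Of 71 results for single introns or exons, none changed direction in any of the 1711 refits. Of the 38 with an adjusted p under 0.05, KIF23 exon 8 kept its calls under every alternative except 1. Its call against wildtype, and that of its skipping intron, were lost when only the groups compared were fitted (adjusted p = 0.0729 and 0.0904). That fit, chosen for exons after seeing the data, lowered the sets called in MYCN+/SNRPD3- against wildtype from 11 to 0 and the introns called in MYCN+/SNRPD3- against wildtype from 8 to 0, with siRNA #1 from 6 to 1 and with siRNA #2 from 2 to 0, and raised knockdown with MYCN expressed from 0 to 1; it has fewer samples, and the cause was not tested.

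The 8 introns against wildtype became 5 with an offset of 0.05, 4 with mean PSI 0.05 to 0.95 or untransformed PSI, and 3 with trend and robust options. The 6 with siRNA #1 became 3 under each of those 4 settings, and the 2 with siRNA #2 became 1 with an offset of 0.001 and 4 untransformed. Under mean PSI 0.05 to 0.95 both falls came from the filter. The missing introns had a lower mean PSI and were not tested, and no tested intron lost its call. With the smaller flanking PSI, 11 sets against wildtype became 5 and 5 in the MYCN average became 3. With the replicate number as a block, introns called against wildtype rose to 13 and with siRNA #2 to 4. In the MYCN average they rose from 6 to 10. Sets rose to 15 against wildtype, 9 in the MYCN average and 1 in the knockdown average. Same-numbered libraries had deviations with a mean correlation of 0.00615 (-0.0509 to 0.0638 over 45 pairs). Yet 13 of 18 libraries correlated best with their own number, a hint from the data and not the design. The labels do not say whether the numbers pair the libraries, and these values do not decide it. Leaving out 1 library gave 1 to 9 introns against wildtype, 0 to 6 with siRNA #1, 0 to 4 with siRNA #2, 0 to 1 for knockdown with MYCN repressed and for the knockdown average, 5 to 8 in the MYCN average, and 1 to 13 sets against wildtype and 4 to 6 in the MYCN average. All counts under these alternatives are of the mitosis genes alone, and whether they changed more or less than the whole series was not tested. The unknown depth limits every single PSI, above all those near 1%.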
